A study of Mus musculus with 24 samples.

Results

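miR-106b, miR-93 and miR-25 are 3 microRNAs (miRNAs) cut from 1 intron of the mouse gene Mcm7, and their 6 mature strands are described here in extracellular vesicles (EVs) from mouse serum. The 6 strands are mmu-miR-106b-5p, mmu-miR-106b-3p, mmu-miR-93-5p, mmu-miR-93-3p, mmu-miR-25-3p and mmu-miR-25-5p (written below without mmu, for mouse), chosen by name among the 1966 mature miRNAs of the deposited count table. The libraries were made from serum EVs of male wild type C57BL/6 mice aged 14 to 16 weeks, 1 library per mouse and 6 mice per group. Mice of the groups S6h, S24h and S72h were bled at 6, 24 and 72 h after an open fracture of the tibia that was stabilized with a pin, under isoflurane and buprenorphine. The Control mice had saline and no surgery, so anesthesia and analgesia accompany surgery in every surgery group, and the S24h and S72h mice had repeated analgesia. The Control libraries are of mice sampled along with the S6h mice, and the controls sampled alongside the later time points were not analysed here. For S24h and S72h against Control or S6h, time after surgery and the set of mice therefore cannot be told apart. The EVs were precipitated from serum with a polymer reagent, which can also bring down miRNA outside vesicles.

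Mcm7 encodes a subunit of the helicase that licenses DNA replication, and the 3 hairpins are transcribed together with it. Each hairpin is cut into a 5p and a 3p strand, of which one is usually loaded into Argonaute and the other is mostly degraded. A miRNA recognises its targets mainly through its seed, bases 2 to 8, and miRNAs with the same seed are placed in a family. miR-93-5p and miR-106b-5p belong to the miR-17 family, whose known targets include the cell cycle inhibitor Cdkn1a (p21). miR-25-3p shares its seed with miR-92a-3p, which comes from the related miR-17 to miR-92a cluster. All of them are abundant in proliferating and blood-forming cells.

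In the GRCm38 build, Mcm7 (ENSMUSG00000029730.16) lies on the minus strand of chromosome 5, from 138164583 to 138172422. In the direction of transcription Mir106b (ENSMUSG00000065514.1, 138165737 to 138165818) comes first, then Mir93 (ENSMUSG00000065527.1, 138165523 to 138165610) and Mir25 (ENSMUSG00000065394.1, 138165321 to 138165404). Gaps of 126 and 118 bases separate them, and together they span 498 bases. All 3 lie in intron 13 of the transcript Mcm7-201, which has 15 exons, and in intron 8 of Mcm7-208, which has 9. Mir93 and Mir25 also lie in exon 1 of Mcm7-202, a transcript annotated as a retained intron. The hairpins, as RefSeq gives them for GRCm38.p6, are shown with the 5p and the 3p strand in capitals, since the results below differ between the strands of a hairpin.
Mir106b: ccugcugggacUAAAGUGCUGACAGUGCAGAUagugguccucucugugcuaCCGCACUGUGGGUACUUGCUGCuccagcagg
Mir93: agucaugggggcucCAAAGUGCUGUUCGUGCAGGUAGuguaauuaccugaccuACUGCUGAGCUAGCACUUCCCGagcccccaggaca
Mir25: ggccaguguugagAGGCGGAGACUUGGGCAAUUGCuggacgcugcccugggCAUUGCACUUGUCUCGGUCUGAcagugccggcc

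All 6 strands matched a RefSeq mature sequence. They are shown with the seed in capitals, grouped by seed, beside the relatives from other loci that had enough reads for a test.
miR-93-5p: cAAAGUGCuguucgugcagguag
miR-106b-5p: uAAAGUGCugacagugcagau
miR-17-5p, other locus: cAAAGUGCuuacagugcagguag
miR-20a-5p, other locus: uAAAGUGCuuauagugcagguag
miR-25-3p: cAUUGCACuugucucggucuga
miR-92a-3p, other loci: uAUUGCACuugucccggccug
miR-106b-3p: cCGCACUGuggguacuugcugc
miR-93-3p: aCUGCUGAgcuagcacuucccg
miR-25-5p: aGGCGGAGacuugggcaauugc
The 2 strands with the seed AAAGUGC share it with 5 other matched miRNAs of the table, of which miR-17-5p and miR-20a-5p were tested. miR-25-3p shares AUUGCAC with 5 others, of which miR-92a-3p was tested. The seeds of miR-106b-3p, miR-93-3p and miR-25-5p occurred in no other matched miRNA of the table. Over the whole strand some relatives are close and others less so. miR-93-5p is 3 single-base edits (substitutions, insertions or deletions) from miR-17-5p and 7 from miR-106b-5p, and miR-25-3p is 4 edits from miR-92a-3p. The methods do not say how reads that fit several loci were counted, so some reads could be shared between such relatives.

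Levels are given in CPM, the count of a miRNA scaled to the total count of its library. Totals ranged from 63956 to 471801 counts over the 24 libraries. Where no read was counted, as many as 3 may have been missed, or 6.36 to 46.9 CPM according to the depth, a limit for counting error alone. Of the 1966 miRNAs, 252 had at least 10 CPM in at least 12 libraries and were tested, and all 6 strands were among them. Fold changes are from edgeR's quasi-likelihood test with TMM scaling in 1 model of the 24 libraries, and a miRNA was called where its p, adjusted by Benjamini-Hochberg over the 252, was under 0.05 and its level changed at least 1.5-fold.

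The strands of the cluster were present at very unequal levels. mmu-miR-25-3p held 62.1% of the 62800 reads of the cluster and ranked 18th of all miRNAs in the Control group, with 15003 ± 4848 CPM (mean ± SD, n = 6). mmu-miR-93-5p held 29.3% and ranked 37th, with 6816 ± 1772 CPM. mmu-miR-106b-5p (4.16% of the reads, 1202 ± 469 CPM) and miR-106b-3p (3.49%, 1056 ± 642 CPM) ranked 78th and 81st. The remaining strands were near the detection limit. mmu-miR-93-3p had 88.0 ± 116 CPM in the Control group and no read in 6 of the 24 libraries, and miR-25-5p had 35.0 ± 55.7 CPM and no read in 10. Read counts of different miRNAs also depend on how well each is ligated and amplified, so the order of levels is that of reads. The order held within libraries. miR-25-3p exceeded miR-93-5p in 23 of 24 libraries, with S72h replicate 2 as the exception, and miR-93-5p exceeded both strands of miR-106b in 24 of 24. The 2 strands of miR-106b did not separate, since the 5p strand was higher in 17 of 24 libraries.

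The hairpins also differed in how their strands were divided. Of the miR-25 reads, 99.8% came from the 3p strand in the Control group (mean of 6 libraries, range 99.3 to 100). Of the miR-93 reads, 98.9% came from the 5p strand (range 96.3 to 100). miR-106b gave both strands, with 55.8% ± 13.6 from the 5p strand (range 34.8 to 72.0). At 24 h the corresponding means were 99.1% for miR-25-3p, 94.5% for miR-93-5p and 55.0% for miR-106b-5p. The share of miR-25-3p was lowest at 72 h, with a mean of 96.5% and a range of 90.5 to 100. These shares were not tested, and those of the rare strands rest on at most 57 reads of miR-93-3p and 34 of miR-25-5p in any library.

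**Figure D1:**
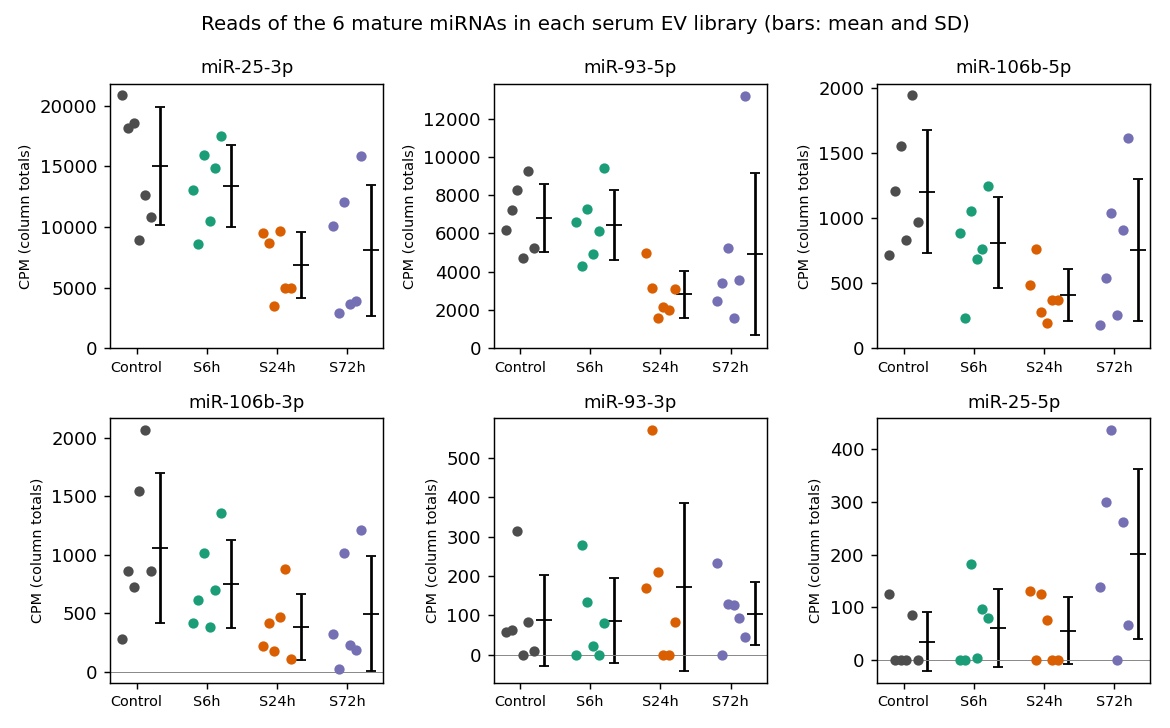
Level of each strand in CPM of the library total (vertical axis) in the 24 serum EV libraries, by group, with 1 point per mouse and the mean and SD of 6 mice beside the points. The 4 strands with most reads have their lowest group mean at 24 h, whereas miR-93-3p and miR-25-5p scatter between 0 and at most 57 and 34 reads per library.

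At 6 h after surgery, no strand of the cluster was called against Control. This was also true of the table as a whole, where 0% of the tested miRNAs were called and 9 had an unadjusted p under 0.05 (edgeR), with 0 to 2 called under the alternatives, DESeq2 among them. miR-25-3p ranged from 8584 to 17472 CPM in S6h (median 13961) and from 8940 to 20907 CPM in Control (median 15389). miR-93-5p ranged from 4295 to 9440 CPM in S6h (median 6361) and from 4701 to 9276 CPM in Control (median 6710). The groups overlapped almost completely for both. The log2 fold changes were -0.12 (SE 0.36) for miR-25-3p, -0.01 (SE 0.33) for miR-93-5p, -0.48 (SE 0.41) for miR-106b-5p and -0.42 (SE 0.57) for miR-106b-3p, with an edgeR adjusted p of 0.991 for each.

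At 24 h, 3 of the 6 strands were lower than in Control, namely miR-25-3p, miR-93-5p and miR-106b-5p. In the same comparison 11.9% of the tested miRNAs were called in either direction and 7.94% were called lower. For miR-25 and miR-93 the strand that fell is the one that gave nearly all reads of its hairpin, whereas both strands of miR-106b were present at similar levels. The cluster as a whole made up 1.60 to 2.94% of a library in Control (median 2.68%) and 0.582 to 1.55% in S24h (median 1.06%), so the highest S24h library stayed below the lowest Control library. For each single strand the groups overlapped, and 2.38% of the tested miRNAs were lower in S24h without overlap. A lower level in serum EVs can come from fewer vesicles of one origin or from less of the miRNA per vesicle, which cannot be told apart here.

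miR-25-3p ranged from 3435 to 9647 CPM in S24h (median 6832), against 8940 to 20907 CPM in Control. Of the 6 S24h libraries, 4 lay below the lowest Control library and all 6 below the Control median, with replicates 1 and 4 inside the Control range. Its level was 2.44-fold lower than in Control (log2 fold change -1.29, SE 0.36, edgeR adjusted p = 0.0152). Without S24h replicate 6 the log2 fold change was -0.995 and the edgeR adjusted p was 0.0670. The same omission moved its log2 fold change at 6 h, a comparison without S24h libraries, from -0.12 to 0.04. Leaving out this mouse thus changed the fit of the other libraries too.

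miR-93-5p ranged from 1597 to 4983 CPM in S24h (median 2608), against 4701 to 9276 CPM in Control. All S24h libraries but replicate 1 lay below the lowest Control library. Its level was 2.69-fold lower (log2 fold change -1.43, SE 0.34, edgeR adjusted p = 0.00657).

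miR-106b-5p ranged from 195 to 759 CPM in S24h (median 367), on 13 to 56 reads per library, and from 714 to 1943 CPM in Control (median 1088), on 77 to 253 reads. Here too 5 of the 6 S24h libraries lay below the lowest Control library, with replicate 2 just inside the Control range. Its level was 3.26-fold lower (log2 fold change -1.70, SE 0.43, edgeR adjusted p = 0.00792).

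miR-106b-3p, the other strand of the same hairpin, ranged from 111 to 881 CPM in S24h (median 321) and from 277 to 2066 CPM in Control (median 859). The estimate was close to that of the 5p strand, but its spread was wider and it did not pass the test (log2 fold change -1.60, SE 0.59, edgeR adjusted p = 0.0624). It passed in 2 of 12 alternative settings, DESeq2 (adjusted p = 0.0464) and a model of the 2 groups alone, and in 3 of 24 fits that left out 1 mouse, those without Control replicate 1, S24h replicate 5 or S72h replicate 2 (edgeR adjusted p from 0.0300 to 0.0439). The rare strands were not called. miR-93-3p had 0 to 569 CPM in S24h and 0 to 314 CPM in Control (log2 fold change 0.79, SE 1.204), and miR-25-5p had 0 to 131 CPM in S24h and 0 to 125 CPM in Control (log2 fold change 0.37, SE 1.36). Standard errors above 1 on the log2 scale leave changes of the size seen in the abundant strands undetectable for these strands.

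**Figure D2:**
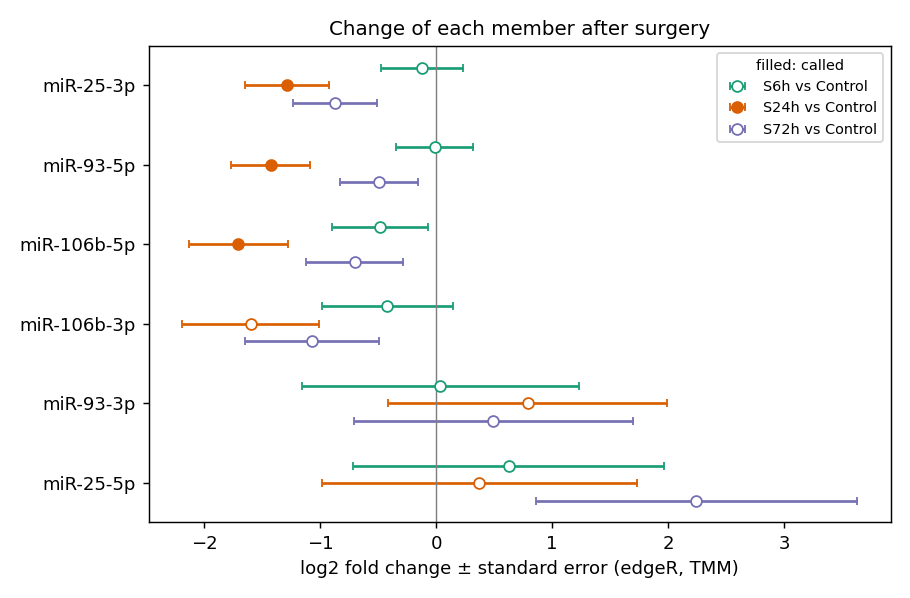
Log2 fold change of each strand against Control (horizontal axis, edgeR with TMM scaling) at 6, 24 and 72 h, with bars of 1 standard error and filled points for strands that were called (adjusted p under 0.05, at least 1.5-fold). Only miR-25-3p, miR-93-5p and miR-106b-5p at 24 h are filled, at -1.29, -1.43 and -1.70, and the bars of miR-93-3p and miR-25-5p are the widest.

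The scaling of the libraries shifted all fold changes at 24 h. The median log2 fold change of the 252 tested miRNAs was -0.21 with TMM, -0.06 with RLE scaling, 0.08 with upper-quartile scaling and -0.03 with column totals alone. Relative to the TMM median, the change was -1.22 for miR-93-5p, -1.08 for miR-25-3p and -1.49 for miR-106b-5p. Another scaling shifts the strands and the median nearly alike by construction. All 3 strands were called under each of the 4 scalings.

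The S24h and S6h groups were also compared, since they share no Control libraries. In this comparison 20.2% of the tested miRNAs (51) were called in either direction and 13.9% were called lower, and the count fell to 32 without S6h replicate 4, S6h replicate 6 or S24h replicate 3. The same 3 strands were lower at 24 h than at 6 h, miR-93-5p by 2.66-fold (log2 fold change -1.41, SE 0.34, edgeR adjusted p = 0.00305), miR-25-3p by 2.24-fold (log2 fold change -1.17, SE 0.36, adjusted p = 0.0226) and miR-106b-5p by 2.33-fold (log2 fold change -1.22, SE 0.42, adjusted p = 0.0427). For miR-93-5p, 5 of 6 S24h libraries lay below the lowest S6h library, and for each of the 3 strands all 6 lay below the S6h median. miR-93-5p was called under every alternative tried and without any single mouse. The calls of the other two depended on the processing. That of miR-106b-5p was lost in 8 of 12 alternative settings, also with another filter on low counts or with DESeq2, and in 10 of 24 fits that left out 1 mouse. With RLE scaling, upper-quartile scaling or column totals alone, miR-93-5p was the only strand called, with log2 fold changes of miR-25-3p between -0.97 and -0.85 (edgeR adjusted p between 0.0544 and 0.0725). miR-93-5p was also the only strand called without S6h replicate 6 or without S24h replicate 3, 5 or 6. miR-106b-3p had a log2 fold change of -1.18 (SE 0.58, adjusted p = 0.173).

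At 72 h the libraries of the cluster had spread apart. miR-25-3p ranged from 2869 to 15852 CPM (median 6971), miR-93-5p from 1597 to 13199 CPM (median 3494) and miR-106b-5p from 176 to 1614 CPM (median 721). For miR-25-3p, replicates 1, 3 and 6 had 10081, 12089 and 15852 CPM, all inside the Control range, whereas replicates 2, 4 and 5 had 2869, 3617 and 3861 CPM, all below it. The SD of miR-93-5p was 4240 CPM against 1772 CPM in Control, and replicate 6 alone reached 13199 CPM, above every other library of the study. No strand was called against Control, where 3.57% of the tested miRNAs (9) were. This count was 0 to 22 over the alternative settings and 1 to 14 when each mouse was left out, with 1 called without Control replicate 2, Control replicate 5 or S72h replicate 5 and 14 without S72h replicate 1. The log2 fold changes were -0.87 (SE 0.36) for miR-25-3p, -0.49 (SE 0.33) for miR-93-5p, -0.70 (SE 0.42) for miR-106b-5p and -1.07 (SE 0.58) for miR-106b-3p, and the smallest edgeR adjusted p was 0.176, for miR-25-3p. Without S72h replicate 6, miR-93-5p was called as lower (log2 fold change -1.04, edgeR adjusted p = 0.0410), so that 1 library decided this count.

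miR-25-5p, the rare strand of miR-25, had its highest group mean at 72 h, with 201 ± 162 CPM and reads in 5 of 6 libraries, against 35.0 ± 55.7 CPM and reads in 2 of 6 Control libraries. The highest S72h library held 34 reads, and the difference did not pass the test (log2 fold change 2.24, SE 1.38, edgeR adjusted p = 0.402).

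Between 24 and 72 h no strand was called, in a comparison where 0.397% of the tested miRNAs were. miR-93-5p and miR-106b-5p had the lowest unadjusted p-values of the cluster. Their log2 fold changes were 0.94 (SE 0.34, edgeR adjusted p = 0.232) and 1.002 (SE 0.42, adjusted p = 0.431). That of miR-25-3p was 0.41 (SE 0.36, adjusted p = 0.793). A return towards Control levels was thus not shown for any strand, and neither was a lasting difference.

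Ratios of 2 miRNAs within a library were used to ask whether strands of 1 transcript moved by different amounts, since such a ratio needs no scaling of libraries. Each was the log2 ratio of counts with 0.5 added, and the test was an exact two-sided permutation over 924 splits of 2 groups, with p adjusted over 15 tests. The ratio of miR-93-5p to miR-25-3p was -1.11 ± 0.44 in Control, -1.06 ± 0.14 in S6h, -1.28 ± 0.52 in S24h and -0.76 ± 0.86 in S72h (mean ± SD, n = 6). It was tightest at 6 h and widest at 72 h, where replicate 2 alone had more miR-93-5p than miR-25-3p. Neither this ratio nor that of miR-106b-5p to miR-25-3p differed detectably in the 3 comparisons tested (S24h and S72h against Control, S24h against S6h), with differences of -0.17 and -0.42 between S24h and Control (exact permutation tests, adjusted p = 0.853 for both). The same held for the strands of miR-106b, whose 3p to 5p ratio was -0.35 ± 0.82 in Control and -0.30 ± 1.24 in S24h (exact permutation test, adjusted p = 0.939). The SDs of these ratios in Control and S24h were 0.44 to 1.24, so unequal changes of moderate size may have gone undetected.

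The relatives of miR-25-3p and miR-93-5p from other loci were not called at 24 h. miR-92a-3p, with the seed of miR-25-3p, was about as abundant in Control (15392 ± 4048 CPM) and ranged from 13575 to 18184 CPM in S24h (median 15797), inside its Control range of 10007 to 20264 CPM. Its log2 fold change at 24 h was -0.15 (SE 0.28, edgeR adjusted p = 0.776), with values between -0.15 and 0.09 over the 4 scalings. The log2 ratio of miR-25-3p to miR-92a-3p was -0.06 ± 0.68 in Control, 0.00 ± 0.59 in S6h and -1.29 ± 0.51 in S24h. The S24h and S6h libraries did not overlap, with ranges of -1.98 to -0.70 and -0.50 to 1.02. This difference was -1.29 (exact permutation test, p = 0.00216, the smallest that 924 splits can give, adjusted p = 0.0325). It no longer passed without S6h replicate 3 (difference -1.08) or replicate 6 (difference -1.21), with an adjusted p of 0.0649 in either case by the exact permutation test. The S24h and S6h libraries still did not overlap in these fits. With fewer libraries the exact test has fewer splits and its p moves in larger steps, so this loss cannot tell a dependence on these mice. Against Control the difference was -1.23 and 6 of 6 S24h libraries lay below the Control median, but the adjusted p was 0.0649 (exact permutation test). Without Control replicate 4, which had the lowest Control ratio at -1.18, the difference was -1.45 and the adjusted p was 0.0162 by the same exact test. At 72 h the ratio ranged from -2.38 to 0.89, wider than any other group, and its difference from Control of -0.77 did not pass (exact permutation test, adjusted p = 0.853).

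**Figure D3:**
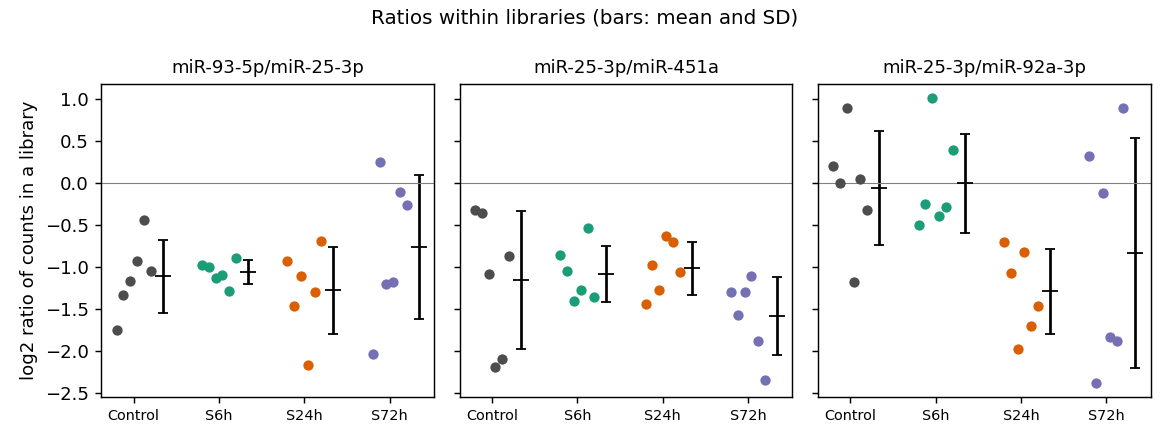
Log2 ratio of counts within each library (vertical axis) for miR-93-5p to miR-25-3p, miR-25-3p to miR-451a and miR-25-3p to miR-92a-3p, with 1 point per mouse and the mean and SD of 6 mice. The ratio to miR-92a-3p lies between -1.98 and -0.70 in S24h and between -0.50 and 1.02 in S6h, and the other ratios overlap between these groups.

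miR-17-5p and miR-20a-5p, the tested relatives of miR-93-5p, were far rarer than it, at 312 ± 218 and 208 ± 140 CPM in Control. Their log2 fold changes at 24 h were -0.88 (SE 0.78) and 0.11 (SE 0.90), and neither was called (edgeR adjusted p = 0.504 and 0.961). Of the 22 strands of the related clusters miR-17 to miR-92a and miR-106a to miR-363, 8 were tested and 1 was called at 24 h, near the 11.9% of all tested miRNAs. This was miR-19a-3p, which had 0 to 24 reads per Control library and 2 reads in all over the S24h libraries (edgeR adjusted p = 0.0479). The median log2 fold change of the 8 was -0.52, beside -1.36 for the 6 strands of the Mcm7 cluster and -0.21 for all tested miRNAs.

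**Figure D4:**
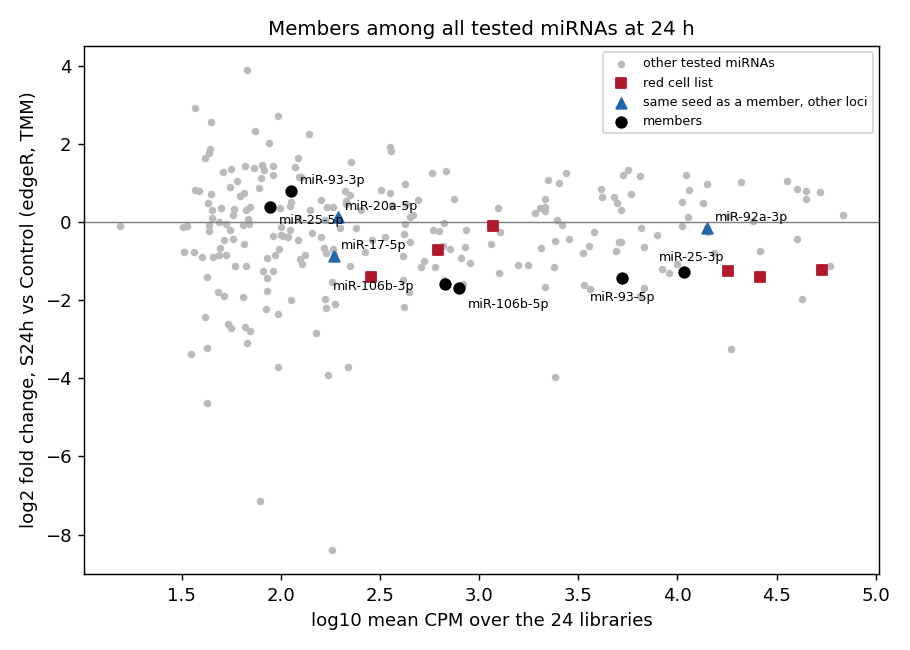
Log2 fold change between S24h and Control (vertical axis, edgeR with TMM scaling) against the log10 mean CPM over the 24 libraries (horizontal axis) for the 252 tested miRNAs, with the 6 strands of the cluster, the red cell list and relatives with the same seed marked. miR-25-3p and miR-93-5p lie at -1.29 and -1.43, close to the abundant red cell miRNAs, and miR-92a-3p lies at -0.15.

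The cluster is expressed in blood-forming cells, so miRNAs known from blood cells and tissues were set beside it. The red cell list had 7 miRNAs, each with reads in at least 1 of the 24 libraries, and 6 were tested. At 24 h, 3 of the 6 were lower and none was higher, where 7.94% of all tested miRNAs were called lower, with a median log2 fold change of -1.24 beside -0.21 for all tested. These were miR-451a, a miRNA matured by Argonaute 2 in red cell precursors (log2 fold change -1.42, edgeR adjusted p = 0.0235), and miR-486a-5p and miR-486b-5p, near-identical strands found in red cells and muscle (-1.26 and -1.22, adjusted p = 0.0215 and 0.0314). Reads could be shared between the 2 strands of miR-486, so these may be 1 change counted 2 times. Against S6h, 1 of the 6 was lower, near the 13.9% of all tested miRNAs, namely miR-451a (log2 fold change -1.27, edgeR adjusted p = 0.0337). The summed level of the list ranged from 104309 to 190543 CPM in Control, from 73130 to 124588 in S6h, from 29828 to 122463 in S24h and from 42219 to 171005 in S72h. Its part in the change of the cluster was not tested.

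The lowest levels of miR-25-3p and of the red cell list fell in the same libraries. The 6 libraries with the lowest miR-25-3p, S24h replicates 3, 5 and 6 and S72h replicates 2, 4 and 5, were also the 6 with the lowest red cell sum. They had at most 4991 CPM of miR-25-3p and at most 53608 CPM of the red cell list, and the next libraries had 8584 and 70150 CPM. For miR-93-5p the 6 lowest libraries shared 4 with the red cell list, for miR-106b-3p 5 and for miR-106b-5p 3. All these levels are shares of the same library totals. The log2 ratio of miR-25-3p to miR-451a was -1.15 ± 0.82 in Control, -1.08 ± 0.34 in S6h and -1.02 ± 0.32 in S24h. The difference between S24h and S6h was 0.07 and that between S24h and Control 0.14 (exact permutation tests, adjusted p = 0.853 for both), so no difference was detectable. At 72 h the ratio was -1.59 ± 0.46, with 6 of 6 libraries below the Control median, and did not pass either (exact permutation test, adjusted p = 0.853).

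**Figure D5:**
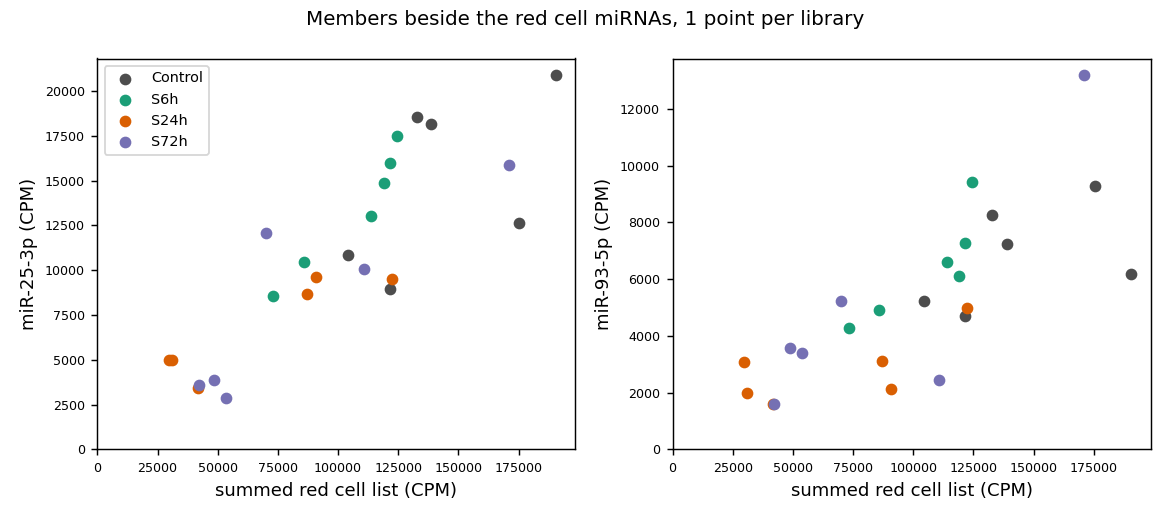
Level of miR-25-3p (left) and miR-93-5p (right) in CPM (vertical axes) against the summed level of the red cell list in CPM (horizontal axes), with 1 point per library coloured by group. The 6 libraries with at most 4991 CPM of miR-25-3p, 3 of S24h and 3 of S72h, stand apart at the lower left, at no more than 53608 CPM of the red cell list.

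Lists for other sources were counted in the same way. Of 5 platelet miRNAs, 1 was lower at 24 h than in Control (miR-199a-3p, log2 fold change -1.66, edgeR adjusted p = 0.0122), with a median of -0.79 over the list. The list did not move as 1, since 3 of the 5 had log2 fold changes below 0, whereas miR-126a-3p and miR-126a-5p were at 0.64 and 0.58, neither of them called. None of the 5 leukocyte, 1 liver and 5 skeletal muscle miRNAs tested was called at 24 h against Control, where 11.9% of all tested miRNAs were. Against S6h, 2 platelet, 3 skeletal muscle and 0 leukocyte or liver miRNAs were lower and 1 leukocyte miRNA was higher, where 13.9% of all tested miRNAs were called lower and 20.2% in either direction. The summed leukocyte level ranged from 4240 to 9923 CPM in Control and from 6734 to 17038 CPM in S24h, and the platelet level from 5642 to 13134 and from 6872 to 12624 CPM. The skeletal muscle level ranged from 34151 to 90196 CPM in Control, from 60182 to 265491 in S6h and from 15682 to 43550 in S24h. Liver miRNAs took 0.371 to 16.0% of a Control library and 29.98% of S72h replicate 4. With library sizes taken without the liver and muscle lists, an alternative chosen after seeing the data, 3 strands and 38 of the 252 tested miRNAs were called at 24 h against Control, and at 72 h no strand but 22 of the 252 were. Between S24h and S6h, miR-106b-5p lost its call under this setting (log2 fold change -1.005, edgeR adjusted p = 0.0871).

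The miRNAs most like each strand across libraries were looked for among the 166 with a mean of at least 100 CPM, by the SD of the log2 ratio within groups over the 24 libraries. miR-93-5p was closest to miR-106b-5p (SD 0.52), followed by miR-15b-5p (0.62), miR-27a-3p (0.62) and miR-223-3p (0.63), where the median over candidates was 1.13. For miR-93-5p the closest were miR-15b-5p (0.48), miR-451a (0.48) and miR-30c-5p (0.49), with miR-106b-5p 6th (0.52) and miR-25-3p 10th (0.55). For miR-25-3p the closest were miR-30b-5p (0.43), miR-24-3p (0.48) and miR-23a-3p (0.49), with miR-93-5p 9th (0.55) and miR-106b-5p 55th (0.89). miR-92a-3p, despite its shared seed, was 51st (0.86). miR-106b-3p had SDs of 1.19 to miR-93-5p, 1.07 to miR-25-3p and 1.25 to the other strand of its own hairpin, beside medians over candidates of 1.01, 1.07 and 1.13. These values describe the libraries and were not tested. Counting error also enters them, more so for strands with few reads.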

How the data were processed

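The deposited table holds whole-number counts of reads per mature miRNA, without normalization. To make these counts the authors used cutadapt for the adapters, Bowtie for alignment to GRCm38, a selection of reads by length and featureCounts with the miRBase annotation, as their methods state. Removal of PCR duplicates and the treatment of reads with several loci are not given in the sources used here. All 24 libraries were matched to 4 groups through the sample labels. No identical pair of libraries was found. The members and lists were chosen with earlier results of these data known.

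R 4.3.3, edgeR 4.0.16 and DESeq2 1.42.0 were used for the tests. miRNAs with at least 10 CPM in at least 12 libraries were tested in 1 quasi-likelihood model, and library sizes were totals of the whole table. CPM in the text use library totals without TMM factors. The standard error is the log2 fold change divided by the root of F. Ratios within libraries were tested by exact two-sided permutation. Mice are the replicates. The text names the 6 strands, their relatives by seed and cluster, the blood cell and tissue lists, and the 3 miRNAs most like each of miR-25-3p, miR-93-5p and miR-106b-5p. The model and the permutation test were checked on simulated data. Alternatives concerned the test, scaling, filter, libraries in the model, fold change rule, robust estimation, replicate block, added count and leaving out each mouse. Sequences are from RefSeq (GRCm38.p6), which matched 1675 of 1966 miRNAs, and positions of genes from Gencode for GRCm38.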

Additional observations from a re-analysis of the deposited data

Results flagged for a closer look

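Within groups of 6 mice, 5 of 44 combinations of strand or ratio and group held a library far from the rest, where the gap to the nearest library, as a share of the group's range, exceeded Dixon's critical value at the 95% level. About 2.2 such cases would be expected if all values were normal and independent. Levels of the rare strands are skewed and the ratios reuse the same counts, so an excess over 2.2 is not shown. miR-93-5p reached 13199 CPM in S72h replicate 6 (gap share 0.687), the library without which miR-93-5p was called at 72 h. miR-93-3p reached 314 CPM in Control replicate 3 (0.731) and 569 CPM in S24h replicate 2 (0.633), on 30 and 42 reads. The log2 ratio of miR-106b-5p to miR-25-3p was -5.17 in S6h replicate 2 (0.653) and -5.57 in S24h replicate 4 (0.629), on 38 and 13 reads of miR-106b-5p. The levels at the 2 time points also differed for 3 strands, tested as S24h minus S6h with edgeR, by -1.22 on the log2 scale for miR-106b-5p (adjusted p = 0.0427), -1.41 for miR-93-5p (adjusted p = 0.00305) and -1.17 for miR-25-3p (adjusted p = 0.0226). The set of mice and the repeated analgesia differ along with time here, and with RLE scaling, upper-quartile scaling or column totals only miR-93-5p was called.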

How the results depend on the processing

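Against Control, the count of strands called at 24 h was 3 to 4 over 12 alternative settings and 2 to 4 when each mouse was left out, and the counts at 6 h and between 72 and 24 h stayed at 0. All tested miRNAs called at 24 h numbered 30 to 50 (30 as reported) and at 72 h 0 to 22 (9 as reported), and leaving out mice gave 20 to 42 and 1 to 14. Between S24h and S6h they numbered 37 to 60 (51 as reported) and between S72h and S24h 0 to 10 (1 as reported), and leaving out mice gave 32 to 53 and 1 to 5. At 72 h the count of strands was 0 to 1 when each mouse was left out. Between S24h and S6h it was 1 under RLE scaling, upper-quartile scaling and column totals, and 1 to 3 when each mouse was left out. No pairing by replicate number was seen in the levels, where 6 of 36 same-numbered pairs had a correlation of deviations over 0.1 (range -0.25 to 0.15). Pairs with different numbers were not compared, and a pairing during sampling or processing was not tested. With the numbers as a replicate block, the ratio of miR-25-3p to miR-92a-3p between S24h and S6h was -1.29 with an adjusted p of 0.469 (exact sign-flip test, too few pairs to pass), and miR-106b-5p between S24h and S6h was -1.17 (edgeR adjusted p = 0.0642).

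Each fold change that changed sign was smaller than its standard error. miR-25-5p between S24h and S6h was 0.0391 with DESeq2, 0.0435 with RLE and 0.23 with upper-quartile scaling. miR-93-3p at 6 h was -0.0255 with column totals, -0.0338 without a filter and -0.17 with the replicate block, and between 72 and 24 h it was 0.90 with the block. With TMM computed without the cluster and the red cell list, miR-93-5p at 6 h was 0.12 and miR-25-3p 0.0061. When each mouse was left out, log2 fold changes at 6 h ranged from -0.17 to 0.15 for miR-93-5p, -0.23 to 0.0575 for miR-25-3p, -0.81 to 1.07 for miR-93-3p and -0.0582 to 1.80 for miR-25-5p. Those at 24 h against Control ranged from -0.0744 to 1.82 for miR-93-3p and -0.0733 to 1.55 for miR-25-5p, those against S6h from -0.11 to 1.60 and from -0.70 to 0.43, and that of miR-93-3p between 72 and 24 h from -0.77 to 0.57. Differences of log2 ratios between S24h and Control ranged from -0.30 to 0.012 for miR-93-5p to miR-25-3p, -0.26 to 0.33 for miR-106b-3p to miR-106b-5p, -0.0698 to 0.30 for miR-25-3p to miR-451a and -1.45 to -1.04 for miR-25-3p to miR-92a-3p. Between S24h and S6h they ranged from -0.11 to 0.39 for miR-106b-5p to miR-25-3p, -0.51 to 0.0914 for miR-106b-3p to miR-106b-5p, -0.0112 to 0.18 for miR-25-3p to miR-451a and -1.40 to -1.08 for miR-25-3p to miR-92a-3p. Between S72h and Control that of miR-106b-5p to miR-25-3p ranged from -0.12 to 0.63. The mean filter of 100 CPM left out miR-25-5p, which had 11 settings. Few reads limit miR-93-3p and miR-25-5p most.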
